A study of Mus musculus with 4 samples.

Results

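The genes described here are 10 mouse genes linked to endothelial tip cells and sprouting, namely Kit, Apln, Trp53i11, Mest, Igfbp3, Col18a1, Plvap, Aplnr, Unc5b and Esm1. They were chosen by symbol, with earlier results of these data known. All 10 were found, with 1 row each, among the 33954 genes of the single-nucleus count matrices. The study asked how a truncating change in the growth factor gene Vegfa acts on the mouse heart before and after myocardial infarction. The 4 groups were Q150X hearts at 3dpMI (3 days after infarction), WT (wild type) hearts at 3dpMI, Q150X hearts at homeostasis and WT hearts at homeostasis, with 1 library of nuclei from whole heart in each. The Q150X allele, which the series writes as VegfaQ150X/Q150, was made by CRISPR/Cas9 editing and models a stop-gained variant of human VEGFA, and the series also tags these mice HO. The homeostatic state is described as adult. The number of hearts behind each library and the exact age and sex of the mice are not given in the sources used here. With 1 library per group no test could be run, so each difference below is one between libraries, and all intervals are 95% intervals that cover counting error only.

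When new vessels form, VEGF signalling turns a few endothelial cells into tip cells, which lead the sprout, while Notch signalling keeps their neighbours as stalk cells. Tip cells secrete apelin (Apln), which acts on the receptor Aplnr of the neighbouring endothelium, and carry guidance receptors such as Unc5b. They also remodel the basement membrane. In the adult heart most endothelial cells are quiescent capillary cells, and an infarct sets off local vessel growth.

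The sequences just upstream of these genes are shown for 3 of them, since Igfbp3 is, of the 9 genes that could be compared, the one whose level differed most between genotypes after infarction, and Kit and Apln are the pair of these genes with the most similar pattern across cell types (r = 0.84, described at the end). In the count matrices they are ENSMUSG00000020427 (Igfbp3), ENSMUSG00000005672 (Kit) and ENSMUSG00000037010 (Apln). Promoter sequences (RefSeq, mouse build GRCm38.p6, 250 bases before to 50 after the start) matched 8 of the 10 genes. Only the first listed promoter of each gene was used, and Kit, Mest and Col18a1 have more than 1. The windows lie at chr11:7213874-7214173 on the minus strand for Igfbp3, chr5:75574737-75575036 on the plus strand for Kit, and chrX:48034804-48035103 on the minus strand for Apln. Capitals mark CG dinucleotides.
Igfbp3: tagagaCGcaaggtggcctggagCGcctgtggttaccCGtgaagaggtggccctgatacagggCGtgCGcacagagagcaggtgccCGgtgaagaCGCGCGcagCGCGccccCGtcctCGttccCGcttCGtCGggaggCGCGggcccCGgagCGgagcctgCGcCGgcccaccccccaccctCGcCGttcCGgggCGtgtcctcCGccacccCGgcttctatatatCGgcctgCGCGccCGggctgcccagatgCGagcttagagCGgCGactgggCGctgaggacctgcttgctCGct
Kit: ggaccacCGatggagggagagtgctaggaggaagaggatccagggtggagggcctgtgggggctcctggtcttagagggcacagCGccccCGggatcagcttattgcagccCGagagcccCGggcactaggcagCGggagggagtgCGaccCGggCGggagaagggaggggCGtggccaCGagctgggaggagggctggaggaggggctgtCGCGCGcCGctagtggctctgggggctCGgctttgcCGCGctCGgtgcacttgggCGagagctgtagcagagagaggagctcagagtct
Apln: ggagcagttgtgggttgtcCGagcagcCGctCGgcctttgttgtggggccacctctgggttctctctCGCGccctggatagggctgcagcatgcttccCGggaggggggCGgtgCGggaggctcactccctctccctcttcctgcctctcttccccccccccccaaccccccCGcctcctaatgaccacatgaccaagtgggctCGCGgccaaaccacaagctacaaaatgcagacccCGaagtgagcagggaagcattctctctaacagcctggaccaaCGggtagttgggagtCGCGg
Igfbp3 holds 37 CG dinucleotides in its window, Kit 20 and Apln 15, against a median of 7 over the promoters of 27025 genes. As many as in Igfbp3, or more, were found in 5.37% of those promoters. The 8 windows were also searched, on both strands, for short motifs. ACGTG, a form of the core that hypoxia-inducible factors bind, is in 19.7% of all promoters and in 0 of the 8. GCGTG, the other form of that core, was not searched for, and the Igfbp3 and Kit windows shown above hold it. GGGCGG (the GC box) is in 35.9% of all promoters and in 6 of the 8. GGAAG (a short core of ETS factor sites) is in 71.1% and in 4 of the 8. CCGGAAGT (a longer ETS site) is in 4.0% and in 0 of the 8. TATAAA is in 14.2% and in 0 of the 8. TAAACA (a forkhead core) is in 13.4% and in 1, Esm1. These are matches of letters only.

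The libraries kept 7364 nuclei (Q150X 3dpMI), 8479 (WT 3dpMI), 6142 (Q150X homeostasis) and 4167 (WT homeostasis), with 27045605, 26569719, 8393926 and 5498152 UMIs, counted as unique molecules. Any 2 libraries shared 39 to 117 cell barcodes. Endothelial nuclei were found from pan-endothelial markers, all 11 of which were detected in the capillary-like and venous-like nuclei of the 4 libraries and in the angiogenic-like nuclei of both infarct libraries, and split into subtypes named from marker lists. The 10 genes were left out of the genes that built the clusters. Blood vascular endothelial nuclei (capillary-, arterial-, venous- and angiogenic-like, plus an interferon-like and a cycling group) numbered 1428 in Q150X 3dpMI, 2549 in WT 3dpMI, 700 in Q150X homeostasis and 531 in WT homeostasis, with median depths of 1934, 1238, 661 and 798 UMIs. Haemoglobin genes were among the leading genes of the capillary-like cluster, and the leukocyte genes Csf3r and Ptprc among those of the interferon-like cluster. The 9 cardiomyocyte markers summed to 1013 CPM (UMIs of a gene relative to all UMIs of that class in that library) in blood vascular endothelial nuclei of Q150X 3dpMI, 4475 in WT 3dpMI, 7469 in Q150X homeostasis and 2467 in WT homeostasis, and the part of free cardiomyocyte RNA in the results below was not tested. Vegfa itself was counted at 700.2 and 593 CPM in cardiomyocytes of the Q150X and WT 3dpMI libraries, and at 925 and 716 CPM in those of the Q150X and WT homeostasis libraries. Over all nuclei, whose mix of cell types differs between libraries, the order was the opposite. There Vegfa had 133 and 210.1 CPM in the Q150X and WT 3dpMI libraries, and 374 and 427 CPM in the Q150X and WT homeostasis libraries. A transcript with a stop codon can still be counted, so these values do not check the genotype.

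At 3dpMI, 9 of the 10 genes had higher levels in blood vascular endothelial nuclei than at homeostasis in both genotypes, and the tenth, Esm1, was too sparse to compare. Col18a1, which encodes the basement membrane collagen that yields endostatin, had 334 CPM (interval 315 to 353) in Q150X 3dpMI, 221 CPM (207 to 236) in WT 3dpMI, 17.2 CPM (7.85 to 32.6) in Q150X homeostasis and 13.5 CPM (5.41 to 27.7) in WT homeostasis. The intervals at 3dpMI lie far above those at homeostasis. Kit, the receptor for stem cell factor, had 212 CPM in Q150X 3dpMI, 160.4 CPM in WT 3dpMI, 32.4 CPM in Q150X homeostasis and 34.6 CPM in WT homeostasis. Plvap, which forms the diaphragms of endothelial fenestrae and caveolae, had 87.3 CPM in Q150X 3dpMI, 56.5 CPM in WT 3dpMI and 3.81 CPM in Q150X homeostasis, and 0 UMIs in the WT homeostasis library, where the floor of 3 counts is 5.76 CPM. In both genes the infarct libraries lay above the homeostatic ones with no overlap of the intervals. Endocardial-like nuclei are not among the blood vascular ones. In them Plvap had 115 CPM in Q150X homeostasis (25 UMIs) and 37.2 CPM in WT homeostasis (2 UMIs). At 3dpMI it had 258 CPM in those of Q150X and 207 CPM in those of WT. A gene on the other strand overlaps each of Col18a1, Plvap and Mest, and whether the counting used strand is not known here, so some of their UMIs could belong to that neighbour.

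The ratio of 3dpMI over homeostasis in Q150X was 22.9 (6.28 to 189.9) for Plvap, 21.8 (7.40 to 106) for Igfbp3, 19.4 (10.2 to 42.6) for Col18a1, 6.55 (4.06 to 11.3) for Kit, 5.46 (1.82 to 26.9) for Apln, 4.14 (2.28 to 8.37) for Mest, 3.37 (2.28 to 5.2) for Unc5b, 2.07 (1.33 to 3.40) for Aplnr and 1.77 (1.27 to 2.52) for Trp53i11. Plvap and Apln had 2 and 3 UMIs at homeostasis there, and the wide intervals say so. A gene is counted here as higher or lower where the CPM ratio is at least 1.5 or at most 1/1.5 and both libraries together hold at least 50 UMIs. By that count 9 of 9 measured genes were higher in Q150X, against 33.5% of 8927 genes higher and 9.45% lower. All 9 reached 50 UMIs only through the infarct library, so this count lends them no support. In capillary-like nuclei alone the ratio in Q150X was 0.757 (0.431 to 1.31) for Trp53i11 and 0.845 (0.343 to 2.04) for Kit, and without the angiogenic-like clusters it was 0.973 for Trp53i11. Over all endothelial nuclei, endocardial-like and lymphatic-like ones included, the Plvap ratio was 3.33 (2.26 to 5.11) in Q150X. In WT that Plvap ratio was 22.9, from 2 UMIs at homeostasis, with an interval that began at 6.30.

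In WT the ratio of 3dpMI over homeostasis was 16.4 (7.95 to 41.0) for Col18a1, 14.2 (2.5 to 566) for Apln, 4.64 (2.91 to 7.87) for Kit, 3.22 (1.67 to 7.14) for Mest, 2.76 (1.52 to 5.61) for Igfbp3, 2.26 (1.27 to 4.45) for Aplnr, 1.95 (1.30 to 3.04) for Trp53i11 and 1.30 (0.997 to 1.72) for Unc5b. Plvap was 9.80-fold higher when taken against the floor of 3 counts in the homeostatic library, and the interval of its ratio began at 7.91. Here 8 of 9 measured genes were higher by 1.5-fold, against 33.4% of 9113 genes higher and 6.87% lower, with the same reservation for all but Unc5b. Unc5b, a netrin receptor that restrains sprouting, is the gene that did not reach 1.5-fold in WT. These comparisons use the same 4 libraries as those between genotypes below.

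**Figure D1:**
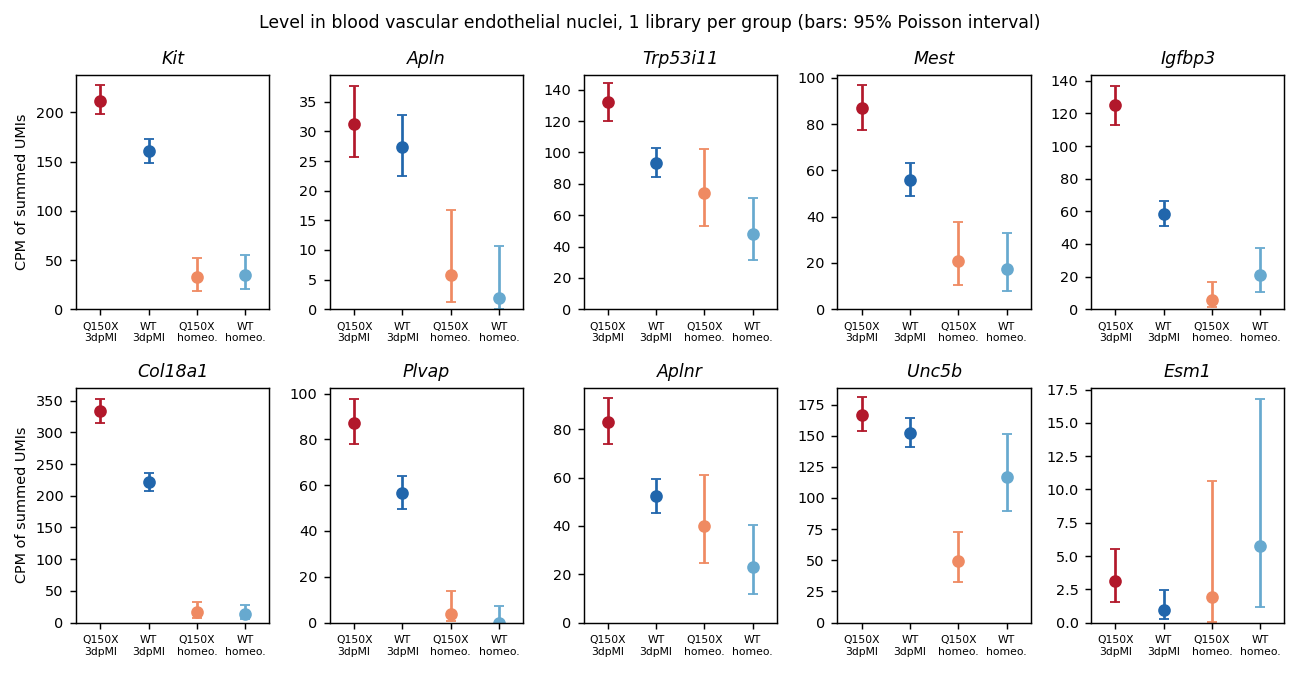
CPM of the summed UMIs of blood vascular endothelial nuclei for each of the 10 genes, with the 4 libraries on the x axis and 95% Poisson intervals as bars (y axes start at 0 and differ between genes). In 9 genes both infarct libraries stand above both homeostatic ones, as with Kit at 212 and 160.4 CPM against 32.4 and 34.6 CPM, but Unc5b in WT homeostasis (117 CPM) comes close to WT 3dpMI (152 CPM), and Esm1 stays near 0.

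The other 39 genes of a tip-cell and sprouting list, some of which also served to name the angiogenic-like clusters, were counted in the same way. Of 32 measured in Q150X, 20 were higher by 1.5-fold and 0 lower, against 33.5% of all measured genes higher and 9.45% lower. The median log2 ratio was 0.69, against 0.26 over all measured genes. Of 33 measured in WT, 14 were higher and 1, Ramp3, was lower (0.617, 0.298 to 1.44, an interval that holds 1). Of all genes measured in WT, 33.4% were higher and 6.87% lower. The median in WT was 0.50 against 0.27 over all measured genes. Of the higher genes in Q150X, all but Col4a1, Col4a2, Lamb1, Notch4 and Vim reached the UMI minimum set above only through the infarct library. In WT this held for all of the higher genes but Vim. As with the genes above, these counts and medians therefore lend no support. In Q150X the ends of the list were Inhbb at 19.6 (3.47 to 782) and Chst1 at 11.2 (3.03 to 92.9), and Pcdh17 at 0.868, Jup at 0.941 and Plod1 at 1.03. In WT they were Inhbb at 8.89 (1.55 to 356) and Cotl1 at 4.88 (1.31 to 41.0), and Ramp3, Ednrb at 0.856 and Pcdh17 at 0.866. Inhbb encodes the beta B subunit of activin B. The high ratios named here each rest on 1 or 2 UMIs at homeostasis.

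The infarct libraries also held a population that the homeostatic ones nearly lacked. Angiogenic-like nuclei were 40.2% (37.6 to 42.8) of the blood vascular endothelial nuclei in Q150X 3dpMI, 25.9% (24.2 to 27.6) in WT 3dpMI, 1.86% in Q150X homeostasis and 0.188% in WT homeostasis, or 574, 659, 13 and 1 nuclei. Capillary-like nuclei were 14.1%, 43.0%, 56.4% and 83.4% in the same libraries. Cycling nuclei were 9.94% in Q150X 3dpMI and 2.98% in WT 3dpMI, and venous-like nuclei 21.6% and 15.8%. A lower share of capillary-like nuclei raises every other share, and loss of nuclei cannot be told apart from gain. When each library was clustered by itself the angiogenic-like shares were 21.0% in Q150X 3dpMI and 20% in WT 3dpMI, so the size of this gap depends on the clustering.

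**Figure D2:**
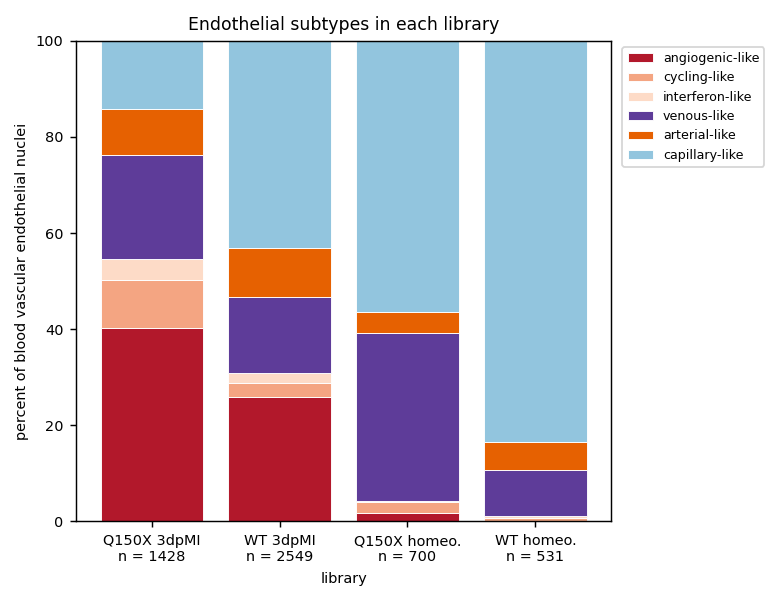
Stacked bars of the 6 subtypes as percent of the blood vascular endothelial nuclei (y axis) in each library (x axis, with the number of nuclei). Angiogenic-like nuclei (dark red) are 40.2% in Q150X 3dpMI, 25.9% in WT 3dpMI and under 2% at homeostasis.

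After infarction the genes showed different patterns over the endothelial subtypes. Kit had 413 CPM (377 to 451) in angiogenic-like nuclei of Q150X and 413 CPM (375 to 453) in those of WT, next 224 and 238 CPM in the cycling group, then 193 and 122 CPM in the interferon-like group, whose intervals overlap those of the cycling group in both libraries, and at most 63.4 and 61.2 CPM in the other subtypes. Angiogenic-like nuclei held 65.0% of the blood vascular Kit UMIs in Q150X 3dpMI and 64.9% in WT 3dpMI, while they held 33.4% and 25.2% of all blood vascular UMIs. Apln had 62.4 CPM (49.0 to 78.3) in angiogenic-like nuclei of Q150X and 66.8 CPM (52.1 to 84.2) in those of WT, 25.5 CPM (15.1 to 40.4) and 54.8 CPM (33.9 to 83.8) in the cycling group, and 7.04 and 4.37 CPM in capillary-like nuclei. Its angiogenic-like and cycling intervals overlap in WT and not in Q150X. Trp53i11, induced by p53 in other settings, had 247 CPM (219 to 277) in angiogenic-like nuclei of Q150X and 189.9 CPM (165 to 218) in those of WT, and 88.0 and 83.7 CPM in capillary-like ones. In interferon-like nuclei it had 193 CPM (125 to 284) in Q150X and 122 CPM (62.8 to 212) in WT, intervals that overlap those of the angiogenic-like nuclei in both libraries. Mest, an imprinted gene with a hydrolase-like product, had 141 CPM (120.2 to 164) in angiogenic-like nuclei of Q150X and 119 CPM (99.6 to 142) in those of WT, and 45.7 and 25.5 CPM in capillary-like ones. In the cycling group Mest had 104 CPM (81.2 to 130.2) in Q150X and 65.3 CPM (42.2 to 96.4) in WT, which overlaps the angiogenic-like interval in Q150X and not in WT. For these 4 genes the angiogenic-like level stood above the capillary-like level in both libraries without overlap of the intervals.

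Aplnr and Plvap were highest elsewhere. Aplnr, the apelin receptor, had 138 CPM (114 to 165) in venous-like nuclei of Q150X and 89.4 CPM (70.2 to 112) in those of WT, 121 and 96.6 CPM in the cycling group, and 48.9 and 47.0 CPM in angiogenic-like nuclei. Venous-like and cycling nuclei did not differ beyond their intervals. Plvap had 258 CPM (213 to 311) in endocardial-like nuclei of Q150X and 207 CPM (169 to 251) in those of WT, 164 and 124 CPM in venous-like nuclei, 147 and 121 CPM in lymphatic-like nuclei, 80.9 and 141 CPM in the cycling group, and 64.9 and 47.0 CPM in angiogenic-like nuclei.

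Igfbp3, Col18a1 and Unc5b were high in arterial-like nuclei. Igfbp3, which binds insulin-like growth factors in the extracellular space, had 288 CPM (236 to 347) in arterial-like nuclei of Q150X and 201 CPM (162 to 246) in those of WT, and 186 and 74.3 CPM in angiogenic-like nuclei. Col18a1 had 573 CPM in arterial-like nuclei of Q150X and 475 CPM in those of WT, 686 and 324 CPM in lymphatic-like nuclei, 410.0 and 441 CPM in the cycling group, and 392 and 316 CPM in angiogenic-like nuclei. Unc5b had 633 CPM in lymphatic-like nuclei of Q150X and 512 CPM in those of WT, 478 and 424 CPM in arterial-like nuclei, 247 and 187 CPM in angiogenic-like nuclei, and only 10.4 and 12.1 CPM in venous-like nuclei. Arterial-like and lymphatic-like intervals for Unc5b overlap in both libraries, at 411 to 553 against 541 to 736 CPM in Q150X and 367 to 487 against 438 to 596 CPM in WT.

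Esm1, which encodes endocan and is widely used as a tip cell marker, had 11 UMIs in 1428 blood vascular endothelial nuclei of Q150X 3dpMI, 4 in 2549 nuclei of WT 3dpMI, 1 in Q150X homeostasis and 3 in WT homeostasis. Angiogenic-like nuclei held 6 of the 11 and 3 of the 4 UMIs. At this depth neither its subtype nor a difference between libraries could be told.

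**Figure D3:**
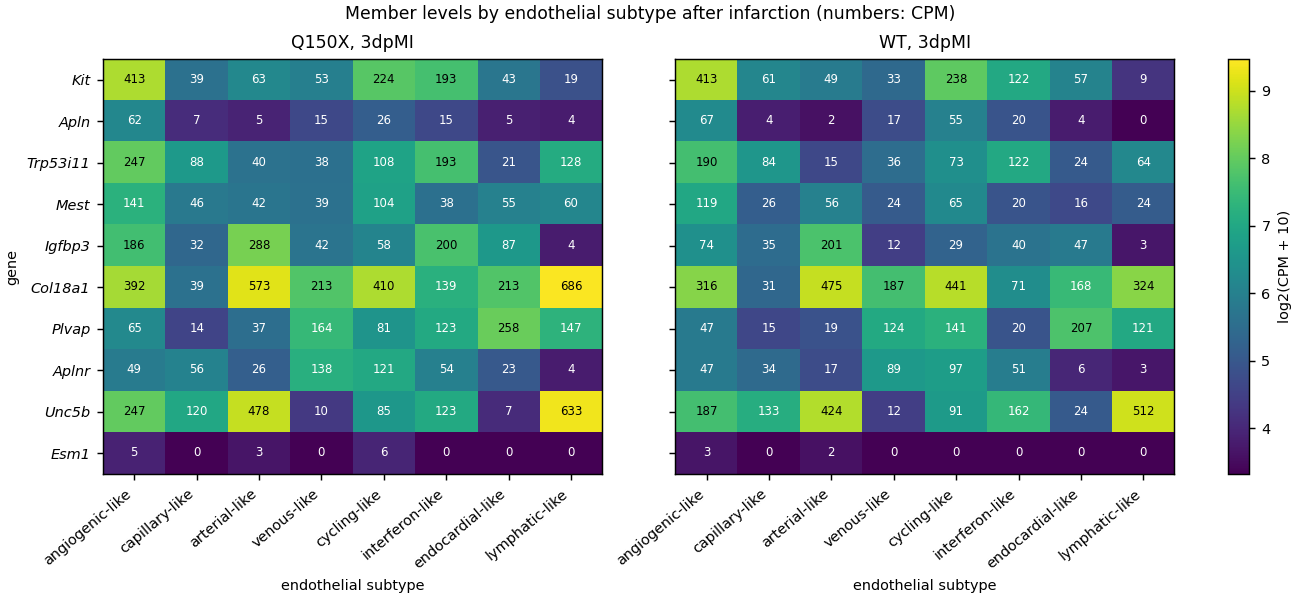
Colour maps of log2(CPM + 10) at 3dpMI, with CPM printed in each cell, for the 10 genes (rows) in 8 endothelial subtypes (columns), Q150X on the left and WT on the right. Kit peaks at 413 CPM in angiogenic-like nuclei of both libraries, Unc5b in lymphatic-like nuclei (633 and 512 CPM) and Plvap in endocardial-like nuclei (258 and 207 CPM).

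At 3dpMI most UMIs of each gene other than Unc5b came from endothelial nuclei. For Esm1 the counts were few, at 11 of 12 UMIs in Q150X and 4 of 7 in WT. The endothelial share of all UMIs of a gene ran from 64.7% (Igfbp3) to 76.5% (Kit) in Q150X for the 8 genes other than Esm1 and Unc5b, and from 64.2% (Igfbp3) to 75.8% (Plvap) in WT. Endothelial nuclei held 15.7% and 19.0% of all UMIs in these libraries. For Unc5b it was 22.9% in Q150X and 30.2% in WT. At homeostasis the counts were small and the share was lower for several genes. It was 20.7% of 29 UMIs in Q150X and 57.9% of 19 in WT for Igfbp3, and 21.7% of 115 UMIs in Q150X and 16.7% of 66 in WT for Col18a1. Fibroblasts had 209.9 CPM of Unc5b in Q150X 3dpMI, 201 CPM in WT 3dpMI, 55.7 CPM in Q150X homeostasis and 51.8 CPM in WT homeostasis. Their ratio of 3dpMI over homeostasis was 3.77 (3.24 to 4.41) in Q150X and 3.88 (3.05 to 5.02) in WT. Pericytes had 134 CPM in Q150X 3dpMI, 109 CPM in WT 3dpMI, 61.0 CPM in Q150X homeostasis and 80.0 CPM in WT homeostasis. The fibroblast cluster led by Postn, Tnc and Adam12, genes of activated fibroblasts, held 1979 of the 2069 fibroblast UMIs of Unc5b in Q150X 3dpMI and 1300 of 1481 in WT 3dpMI. Kit was also found in dendritic-like cells, at 89.5 CPM in Q150X 3dpMI and 127 CPM in WT 3dpMI. Col18a1 reached 1386 CPM in 14 Schwann-like nuclei of Q150X 3dpMI and 782 CPM in 47 of WT 3dpMI. In smooth muscle it had 195 CPM and 208 CPM at 3dpMI and 320.3 and 335 CPM at homeostasis.

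Counted per nucleus, 3 or more of the 10 genes were detected in 21.5% (19.4 to 23.7) of blood vascular endothelial nuclei of Q150X 3dpMI, 7.92% (6.91 to 9.04) of WT 3dpMI, 0.143% of Q150X homeostasis and 0.565% of WT homeostasis. These shares rise with depth. After each nucleus was thinned to 500 UMIs, at least 1 of the 10 genes was seen in 34.7% (32.3 to 37.3) of nuclei of Q150X 3dpMI, 24.2% (22.5 to 25.9) of WT 3dpMI, 10.3% of Q150X homeostasis and 12.2% of WT homeostasis. Cardiomyocytes, which should lack most of these genes, gave 1.32%, 1.72%, 0.358% and 0.704% after the same thinning, with median depths of 7780.5, 6125, 3021 and 1513 UMIs before it. Within angiogenic-like nuclei the thinned shares were 43.7% (39.6 to 47.9) in Q150X and 39.2% (35.4 to 43.0) in WT, whose intervals overlap.

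The comparison of genotypes at 3dpMI asks whether levels after infarction differ in Q150X. It does not compare the change from homeostasis. Over all blood vascular endothelial nuclei, 5 of the 9 measured genes were higher in Q150X by 1.5-fold and 0 lower, against 8.32% of 10751 genes higher and 4.86% lower. All 9 ratios of Q150X over WT were above 1, with a median log2 ratio of 0.59, against 0.09 over all measured genes. Since the genes were chosen with earlier results of these data known, these counts and this median lend no support. Igfbp3 had 125 CPM (113 to 137) in Q150X and 58.4 CPM (51.3 to 66.1) in WT, a ratio of 2.13 (1.82 to 2.5). Aplnr had 83.1 CPM in Q150X and 52.2 CPM in WT, a ratio of 1.59 (1.33 to 1.90). The ratio was 1.56 (1.31 to 1.85) for Mest, 1.55 (1.30 to 1.84) for Plvap and 1.51 (1.38 to 1.64) for Col18a1. It was 1.41 (1.23 to 1.61) for Trp53i11, 1.32 (1.19 to 1.47) for Kit, 1.15 (0.875 to 1.5) for Apln and 1.10 (0.980 to 1.23) for Unc5b. Aplnr, Mest, Plvap and Col18a1 lie close to the 1.5-fold bound, and after centring on the median ratio of all genes Igfbp3 alone stayed past it. With at least 1000 UMIs required per nucleus, 2 genes were past it.

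The libraries differ in their mix of subtypes, and for every gene but Unc5b the ratio was smaller once that mix was set equal. With the Q150X levels of each subtype weighted to the WT mix, the ratio was 1.84 for Igfbp3, 1.40 for Aplnr, 1.31 for Mest, 1.25 for Trp53i11, 1.20 for Plvap, 1.16 for Col18a1, 1.10 for Unc5b, 0.992 for Kit and 0.889 for Apln. So 1 of the 9 was past 1.5-fold. Inside the angiogenic-like nuclei 1 of 9 measured genes, again Igfbp3, was higher by 1.5-fold and 0 lower, against 6.13% of 6741 genes higher and 3.37% lower. Igfbp3 had 186 CPM (162 to 212) in angiogenic-like nuclei of Q150X and 74.3 CPM (58.8 to 92.6) in those of WT, a ratio of 2.51 (1.93 to 3.28). Kit had a ratio of 1.0 (0.878 to 1.14) there, from 490 UMIs in 165 nuclei of Q150X and 439 UMIs in 173 nuclei of WT. That interval takes UMIs as independent and covers no difference between hearts, so it does not show equal levels. Apln had 0.934 (0.665 to 1.31), Aplnr 1.04 (0.70 to 1.55), Mest 1.18 (0.93 to 1.5), Col18a1 1.24 (1.08 to 1.43), Trp53i11 1.30 (1.08 to 1.56), Unc5b 1.32 (1.10 to 1.59) and Plvap 1.38 (0.954 to 2.01). In these nuclei the 9 cardiomyocyte markers, none at 0, summed to 1117 CPM in Q150X and 4569.7 CPM in WT, and the 8 fibroblast markers to 1907 CPM in Q150X and 1630.4 CPM in WT, where Tcf21 was at 0. Their part in these ratios was not tested.

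**Figure D4:**
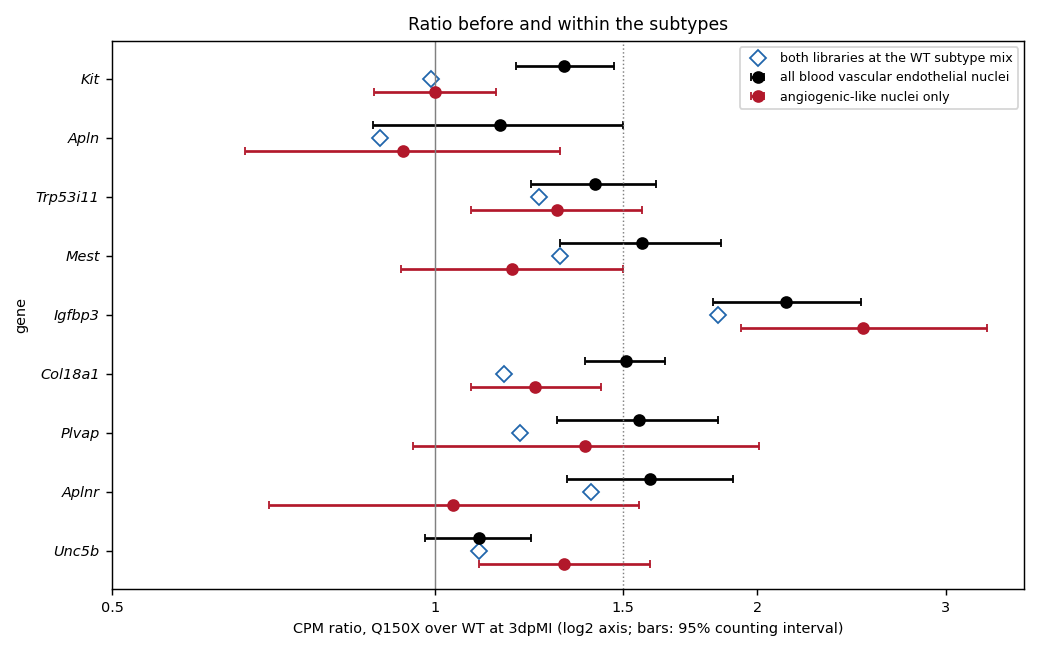
Ratio of CPM in Q150X over WT at 3dpMI (x axis, log2 scale) for 9 genes, over all blood vascular endothelial nuclei (black), with both libraries at the WT subtype mix (open diamonds, no interval) and within angiogenic-like nuclei (red), with 95% counting intervals as bars. The dotted line is 1.5-fold, and Igfbp3, at 2.13, 1.84 and 2.51, is the gene that lies past it in all 3 readings.

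Igfbp3 was also higher in Q150X in some of the other subtypes. Besides the angiogenic-like nuclei, the ratio of Q150X over WT was 1.43 (1.08 to 1.91) in arterial-like, 2.02 (1.02 to 4.37) in cycling and 1.83 (1.07 to 3.20) in endocardial-like nuclei. Venous-like nuclei had 41.6 CPM in Q150X and 12.1 CPM in WT (36 and 10 UMIs), a ratio of 3.44 (1.67 to 7.78). In interferon-like nuclei the 26 UMIs of Q150X lay in 5 of 65 nuclei and the 4 UMIs of WT in 4 of 53, so the share of nuclei with a UMI was 7.69% in Q150X and 7.55% in WT. Capillary-like nuclei had 31.7 CPM (14.5 to 60.1) in Q150X and 35.0 CPM (25.8 to 46.3) in WT, a ratio of 0.906 (0.391 to 1.87). Outside the endothelium the ratio was 1.55 (1.05 to 2.34) in macrophages or monocytes and 1.28 (0.918 to 1.81) in fibroblasts. Pericytes had 3.91 CPM in Q150X and 10.2 CPM in WT (4 and 17 UMIs), a ratio of 0.385 (0.0942 to 1.18). At homeostasis Igfbp3 had 5.72 CPM (1.18 to 16.7) in Q150X and 21.1 CPM (10.6 to 37.8) in WT, from 3 and 11 UMIs, so the order there was the opposite, at a depth too low to compare.

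Other subtypes had differences of their own. In lymphatic-like nuclei Col18a1 had 686 CPM in Q150X and 324 CPM in WT, a ratio of 2.11 (1.66 to 2.71), and Trp53i11 had 128 CPM in Q150X and 63.7 CPM in WT, a ratio of 2.01 (1.13 to 3.65). In venous-like nuclei Aplnr had a ratio of 1.54 (1.14 to 2.09) and Plvap one of 1.32 (1.02 to 1.72). In the cycling group Plvap was lower in Q150X, at 80.9 CPM against 141 CPM in WT, a ratio of 0.573 (0.388 to 0.848), the opposite direction to the pooled value. In capillary-like nuclei 6 genes were measured, of which 1 was higher in Q150X and 1 lower by 1.5-fold, each with an interval that holds 1. Aplnr had 56.3 CPM in Q150X and 33.5 CPM in WT, a ratio of 1.68 (0.888 to 3.02). Kit had 38.7 CPM in Q150X and 61.2 CPM in WT, a ratio of 0.633 (0.304 to 1.19).

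**Figure D5:**
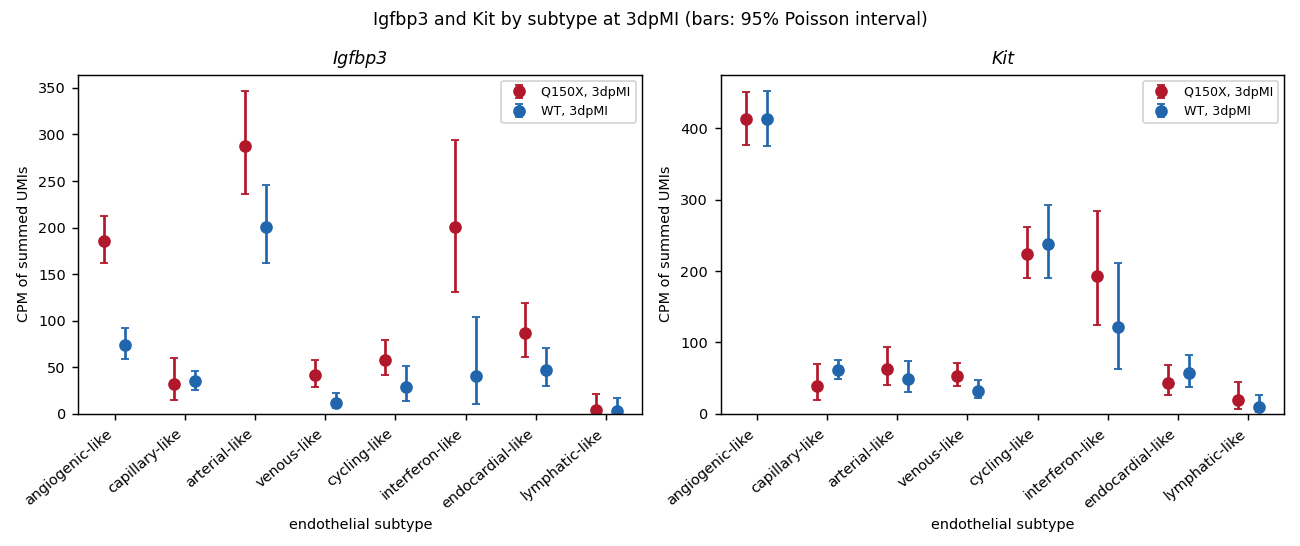
CPM of Igfbp3 (left) and Kit (right) by endothelial subtype (x axis) at 3dpMI, Q150X in red and WT in blue, with 95% Poisson intervals as bars. Igfbp3 is at 186 CPM in Q150X and 74.3 CPM in WT in angiogenic-like nuclei, while Kit is at 413 CPM in both.

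Among the other 39 sprouting genes, 34 were measured between genotypes at 3dpMI, of which 5 were higher in Q150X by 1.5-fold and 0 lower, against 8.32% of all measured genes higher, and the median log2 ratio was 0.23, against 0.09 over all measured genes. Within angiogenic-like nuclei 29 were measured, 2 were higher and 0 lower, a share close to the 6.13% of all measured genes higher there, with a median of 0.16 against 0.04. This list too was chosen with earlier results of these data known, so its counts and medians lend no support. Over all blood vascular endothelial nuclei the 3 highest were Inhbb, with 37.5 CPM in Q150X and 17.1 CPM in WT (ratio 2.19, 1.63 to 2.96), Chst1, a sulfotransferase, with 42.5 and 19.9 CPM (ratio 2.13, 1.62 to 2.82), and Lxn, a carboxypeptidase inhibitor, with a ratio of 1.79. The 3 lowest were Pdgfb, with 259 CPM in Q150X and 348 CPM in WT (ratio 0.745, 0.685 to 0.809), Ramp3 at 0.923 and Jup at 0.927. Pdgfb encodes the growth factor by which endothelium recruits pericytes. In angiogenic-like nuclei it had 345 CPM in Q150X and 427 CPM in WT, a ratio of 0.807 (0.705 to 0.925).

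At homeostasis the genotypes could be compared for 2 of the 10 genes only. Unc5b had 49.6 CPM (32.4 to 72.7) in Q150X and 117 CPM (89.7 to 151) in WT, from 26 and 61 UMIs, a ratio of 0.423 (0.257 to 0.680). Trp53i11 had 74.4 CPM (52.9 to 102) in Q150X and 48.0 CPM (31.1 to 70.9) in WT, a ratio of 1.55 (0.914 to 2.67) whose interval holds 1. So 1 gene was higher and 1 lower by 1.5-fold, against 10.5% of 3641 genes higher and 6.34% lower. The subtype mix differed here too: venous-like nuclei, which hold little Unc5b, were 34.9% of blood vascular endothelial nuclei in Q150X and 9.60% in WT. Within capillary-like nuclei Unc5b had 70.4 CPM in Q150X and 125 CPM in WT, a ratio of 0.563 (0.320 to 0.955), and Trp53i11 had 116 CPM in Q150X and 52.3 CPM in WT, a ratio of 2.22 (1.27 to 3.96). The 9 cardiomyocyte markers summed to 8646 CPM in these nuclei of Q150X and to 2481 CPM in those of WT, and their part was not tested. Of the other sprouting genes, 19 were measured, 0 were higher and 1, Robo4 at 0.632 (0.432 to 0.915), was lower. Next were Pdgfb at 0.702 and Notch4 at 0.718, and the highest were Pmepa1 at 1.41, Lamb1 at 1.35 and Fscn1 at 1.31.

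The genes whose levels followed each of these genes most closely were taken over 46 sums of a class or subtype in a library, which share libraries and depth, so Pearson's r of log2(CPM + 10) is a description. Kit went with Cd109 (r = 0.85), Apln (0.84) and Nr5a2 (0.83), and Apln with Kit, Vwa1 (0.78) and Rhbdl2 (0.78). Mest went with Cd109 (0.85), N4bp3 (0.85) and Tnfrsf10b (0.84), and Trp53i11 with Plxnd1 (0.86), Kdr (0.85) and Gimap6 (0.82). Aplnr went with Lhx6 (0.91), B3gnt3 (0.88) and Adamts9 (0.86), and Plvap with Nts (0.81), Exoc3l2 (0.80) and Slco2a1 (0.78). Igfbp3 went with Pik3r3 (0.83), Cldn15 (0.80) and Upp1 (0.79), Col18a1 with Cavin3 (0.81), Adamts4 (0.80) and Reno1 (0.79), and Unc5b with Meox1 (0.73), Atp13a3 (0.73) and Gprc5b (0.72). Esm1 reached 0.60 with Ttc7b, 0.57 with Zfp979 and 0.56 with Sdcbp2, on too few UMIs to say more. Kdr, the main VEGF receptor of endothelium, Plxnd1 and N4bp3 are themselves on the lists of markers or sprouting genes used here.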

How the data were processed

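Nuclei from mouse heart were profiled with the 10x 5′ kit, version 2, per the labels. UMI counts were deposited without normalization, and the file headers ascribe them to Cell Ranger 7.1.0. Scanpy and the build GRCm39 are named in the submitters' processing notes.

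Nuclei with at least 500 UMIs, at least 300 genes and at most 10% mitochondrial UMIs were kept (26152 of 28216 after doublets were removed with Scrublet, in Scanpy 1.11.5). Where its automatic threshold marked under 0.5% of a library of over 5000 nuclei, in Q150X homeostasis and WT 3dpMI, nuclei were removed from the top score down, at a rate of 0.8% for each 1000 nuclei. Libraries were clustered together (2000 variable genes, 30 components, 15 neighbours, Leiden with leidenalg 0.10.2 at resolution 1), and endothelial clusters again at resolution 0.5. Clusters were named from marker lists, needing at least 3 markers. Of 10 endothelial sub-clusters, 2 stayed unnamed and were left out.

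UMIs were summed per class and library and divided by the class total (CPM). Sums have exact Poisson, shares exact binomial (Clopper-Pearson) and ratios exact conditional binomial intervals, at 95%. Thinning drew 500 UMIs from each nucleus. The code was tested on simulated counts. All 10 members are named in each comparison; of the other 39 genes, the 3 at each end, of which 1 is not reported here; by pattern, the 3 genes with the highest r per member, among those with at least 100 endothelial UMIs. The members and lists were chosen with earlier results of these data known. Alternatives in filters, clustering, weighting and folds were tried. In GENCODE M21, genes on the other strand overlap Plvap (Gtpbp3), Mest (Copg2), Col18a1 (Slc19a1) and Esm1 (Gzmk), and the sources used here do not say whether counting used strand.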

Additional observations from a re-analysis of the deposited data

How the results depend on the processing

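No paired analysis was possible because each group has 1 library and no test was run. For 3dpMI over homeostasis, the counts of members past 1.5-fold were 9 in Q150X and 8 in WT. In capillary-like nuclei only they were 1 of 2 measured in Q150X and 2 of 5 measured in WT. Of all genes measured in those nuclei, 12.7% of 2357 were higher in Q150X and 19.4% of 5462 in WT. Between genotypes at 3dpMI the count of 5 became 3 with at most 5% mitochondrial UMIs, 2 with at least 1000 UMIs per nucleus, 1 at a fold of 2, 1 after centring on the median ratio, 2 (1 higher, 1 lower) in capillary-like nuclei only, and 1 at the WT subtype mix, an alternative added after seeing the data. At homeostasis the count of 2 became 1 in all endothelial nuclei, with at most 5% mitochondrial UMIs, with every nucleus weighted the same and at a fold of 2, and 0 after thinning and with at least 1000 UMIs, where no member kept 50 UMIs.

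The angiogenic-like share moved with the clustering. It was higher in Q150X 3dpMI than in WT 3dpMI in each, but nearly the same in both with libraries clustered separately. It was 27.8% in Q150X and 14.2% in WT with at most 5% mitochondrial UMIs, 42.8% and 28.1% with doublets left in, 28.8% and 11.7% with endothelial reclustering at resolution 1, 21.0% and 20% with libraries clustered separately, 33.4% and 15.3% with members among the variable genes, 31.8% and 18.0% with at least 1000 UMIs, 36.9% and 18.8% with another random seed (added after seeing the data), and 38.3% and 23.0% at Leiden resolution 2. In several of these, sub-clusters of up to 1085 nuclei that could not be named were left out of both counts. At homeostasis the Q150X share was 0.314%, 0.147%, 0 and 0.293% with at most 5% mitochondrial UMIs, reclustering at resolution 1, separate clustering and members among the variable genes, and the WT share 0 and 1.17% in the last 2. The cause was not tested.

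Within angiogenic-like nuclei at 3dpMI, the ratio of Q150X over WT ran over 7 alternatives from 1.84 to 2.65 for Igfbp3, 0.881 to 1.14 for Kit and 0.765 to 1.14 for Apln. In capillary-like nuclei only, the ratio of Q150X over WT at 3dpMI turned to 0.633 for Kit and 0.898 for Unc5b. It turned to 0.906 for Igfbp3 and to 0.966 for Plvap, the latter from 4 and 20 UMIs. In the same nuclei the ratio of 3dpMI over homeostasis in Q150X turned to 0.845 for Kit and 0.757 for Trp53i11. Without the angiogenic-like clusters Trp53i11 had 0.973. Of 506 single-gene values under alternatives, 402 lay within an approximate 95% counting error of the main value. Depth limits the homeostatic libraries most, where 2 members had 50 UMIs over both.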

Other observations

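Markers of the angiogenic-like clusters that are not among the 10 genes did not share one direction between genotypes. In angiogenic-like nuclei at 3dpMI, Chst1 had 66.6 CPM in Q150X and 39.5 CPM in WT, a ratio of 1.69 (1.15 to 2.51), and Inhbb 69.9 CPM in Q150X and 40.4 CPM in WT, a ratio of 1.73 (1.18 to 2.56). Angpt2, the Tie2 ligand that destabilises vessels, had 136 CPM in Q150X and 159.8 CPM in WT, a ratio of 0.849 (0.680 to 1.06), and Pgf, placental growth factor, 74.1 CPM in Q150X and 92.1 CPM in WT, a ratio of 0.805 (0.596 to 1.08), both with intervals that hold 1. These genes helped name the clusters, and 1 library per genotype gives no check of the differences.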
